A study of Homo sapiens with 18 samples.

Results

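The 10 core circadian clock genes PER1, PER2, PER3, CRY1, CRY2, BMAL1 (also called ARNTL), CLOCK, NR1D1, NR1D2 and DBP were followed in PC-3 cells (a line from human prostate cancer) after brief fluid shear stress. They were chosen by NCBI Gene ID from the 28395 Gene IDs of the raw count table, all 10 were present, and all 10 passed the filter on low counts. Cells grown in DMEM/F12 with serum were detached, placed in a serum-free medium with insulin-transferrin-selenium and albumin, and passed through a fine syringe needle (sheared) or kept in suspension meanwhile (static). Both kinds were then held in wells coated with poly-HEMA, which prevents attachment, and their cytosolic RNA was sequenced 3, 12 or 24 h after the exposure. Each of the 6 groups had 3 libraries, and sheared and static libraries of the same replicate number and time came from 1 pool of cells. All values are from 1 cell line. The 3 h libraries carry another date than the 12 h and 24 h libraries, and whether that date marks a batch is not stated. Differences in level between 3 h and later times thus cannot be told apart from a possible batch, while each shear comparison was made within pools.

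The circadian clock is a transcriptional feedback loop that runs in most cells of the body and, with a period near that of a day, also in many cultured lines. BMAL1 and CLOCK form the activator that binds E-box motifs and drives the PER and CRY genes, whose proteins return to the nucleus and repress it. The same activator drives NR1D1 and NR1D2 (REV-ERB alpha and beta), nuclear receptors that repress BMAL1 through RORE motifs, and DBP, which activates genes through D-box motifs.

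Promoter windows of 300 bases, from 250 before to 50 after an annotated start site, were read from RefSeq annotation of GRCh38.p14. The table held 15 windows for the 10 genes. Of the 6 windows that hold a motif through which the loop is wired, 5 are shown. The window not shown is one of CLOCK, which holds a RORE. Capitals mark a match, searched on both strands, to the E-box CACGTG, the D-box TTANGTAA or the RORE, which is given by name. The windows lie at chr17:8152355-8152654 for PER1 and chr2:238288561-238288860 for PER2, both on the minus strand. They lie at chr1:7784041-7784340 for PER3, chr11:13277540-13277839 for BMAL1 and chr3:23945871-23946170 for NR1D2, all on the plus strand.
PER1: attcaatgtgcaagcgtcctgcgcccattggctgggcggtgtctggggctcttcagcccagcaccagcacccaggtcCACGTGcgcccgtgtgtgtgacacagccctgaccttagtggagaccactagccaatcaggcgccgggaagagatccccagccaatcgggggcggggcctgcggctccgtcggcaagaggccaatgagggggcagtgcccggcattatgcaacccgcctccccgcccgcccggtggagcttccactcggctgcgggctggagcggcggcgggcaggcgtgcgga
PER2: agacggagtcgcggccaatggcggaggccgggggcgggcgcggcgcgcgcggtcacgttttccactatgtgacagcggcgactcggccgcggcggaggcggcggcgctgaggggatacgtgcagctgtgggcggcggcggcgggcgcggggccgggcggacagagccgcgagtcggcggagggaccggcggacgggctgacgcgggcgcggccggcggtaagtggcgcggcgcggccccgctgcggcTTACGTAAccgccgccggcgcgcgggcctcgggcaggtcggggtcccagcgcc
PER3: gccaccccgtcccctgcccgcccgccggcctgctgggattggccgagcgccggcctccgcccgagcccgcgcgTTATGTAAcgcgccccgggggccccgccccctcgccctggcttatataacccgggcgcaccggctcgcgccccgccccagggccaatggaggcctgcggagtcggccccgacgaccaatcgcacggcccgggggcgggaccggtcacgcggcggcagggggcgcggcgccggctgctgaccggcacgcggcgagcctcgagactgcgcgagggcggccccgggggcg
BMAL1: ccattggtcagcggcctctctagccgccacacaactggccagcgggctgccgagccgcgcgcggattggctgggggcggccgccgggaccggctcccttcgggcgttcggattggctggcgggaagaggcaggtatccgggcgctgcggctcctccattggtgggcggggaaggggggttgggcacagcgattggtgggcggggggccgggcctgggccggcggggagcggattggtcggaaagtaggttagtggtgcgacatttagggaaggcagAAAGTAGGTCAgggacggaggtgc
NR1D2: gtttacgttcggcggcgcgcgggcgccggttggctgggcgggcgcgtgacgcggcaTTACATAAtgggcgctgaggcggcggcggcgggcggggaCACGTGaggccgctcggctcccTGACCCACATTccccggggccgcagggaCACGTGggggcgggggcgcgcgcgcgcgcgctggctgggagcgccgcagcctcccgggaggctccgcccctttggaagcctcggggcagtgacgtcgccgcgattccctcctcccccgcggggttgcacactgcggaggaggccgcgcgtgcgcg

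The E-box was found in 2 of the 15 windows, those of PER1 and NR1D2, the latter with 2 matches. The D-box was found in 3 windows (PER2, PER3 and NR1D2) and the RORE in 3 (BMAL1, CLOCK and NR1D2). Among 35116 promoter windows of the same length, 7.26% held the E-box, 2.18% the D-box and 0.316% the RORE. The cyclic AMP response element TGACGTCA, held by 1.85% of all windows, and the CArG box bound by serum response factor, held by 1.29%, matched in 0 of the 15 windows. No match overlapped another, and a match describes the letters only. The map of motif positions shows that one NR1D2 window carries all 3 kinds of match.

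**Figure D1:**
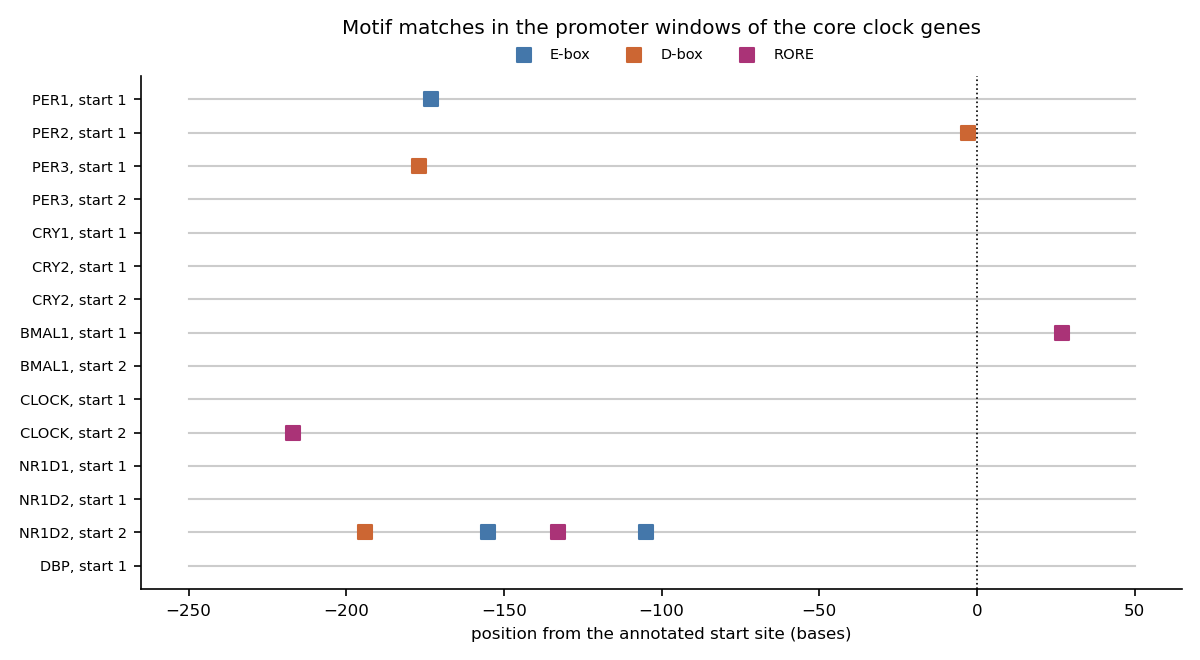
Positions of motif matches in the 15 promoter windows of the 10 core clock genes, in bases from the annotated start site (dotted line); squares are matches to the E-box, D-box or RORE, and a gene with several annotated starts has a line for each. The second NR1D2 window holds 2 E-boxes, 1 D-box and 1 RORE, whereas 9 windows hold none.

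Libraries held 16400487 to 25862360 counts. The 7 epithelial markers, among them KRT8, KRT18 and EPCAM, were expressed in every library, with a sum that was lower in static (5427 to 5918 CPM) than in sheared cells (6142 to 6163) at 3 h and higher at 12 h (5998 to 6482 against 5297 to 5760). Of the markers of androgen-dependent prostate cells, KLK2 was at 0 and KLK3 reached at most 0.0603 CPM (counts scaled to library size). Of the other cell types, 5 of 6 haematopoietic markers and 4 of 7 fibroblast and endothelial markers stayed under 1 CPM in all libraries. The last list, summed, was lower in static (26.1 to 36.0 CPM) than in sheared libraries (45.0 to 46.6) at 3 h and higher at 12 h (110 to 128 against 65.3 to 74.1) and at 24 h (108 to 127 against 64.5 to 101). Its most abundant members were PECAM1 (10.2 to 96.8 CPM) and COL1A1 (13.03 to 38.7 CPM), while DCN, VWF and CDH5 reached at most 0.274, 0.199 and 0.275 CPM. The nuclear-retained RNA MALAT1 ranged over 26.6 to 31.7 CPM in the static libraries of 3 h and over 14.9 to 16.1 CPM in their sheared pairs, while the ranges of NEAT1 overlapped (41.4 to 73.3 and 34.2 to 64.2 CPM). In the edgeR test of shear at 3 h neither RNA passed (MALAT1 log2 -0.82, adjusted p = 0.778, and NEAT1 -0.29, 0.911). The sum of 5 nuclear-retained RNAs ranged over 292 to 323 CPM in the static libraries of 12 h and over 240 to 272 CPM in their sheared pairs. The part of these differences in the changes below was not tested. The sheared 24 h library of replicate 3 stood apart, with a TMM scaling factor of 0.721. It had the fewest genes detected (17007) and 28.2% of counts in its 100 most abundant genes. It also held the most MALAT1 (49.3 CPM) and NEAT1 (292 CPM) of the 18 libraries. Sheared replicate 2 of 24 h held 6.90 and 41.9 CPM of these RNAs. The 24 h sum of the 5 nuclear-retained RNAs spanned 119 to 393 CPM after shear, around a static range of 184 to 297 CPM. The part of this spread in the 24 h values below was not tested.

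In the levels that follow, CPM is scaled by TMM factors, which correct for RNA composition, and the values of a group are in the order of replicates 1 to 3. Compared per kilobase of annotated exon in static 3 h cells, NR1D2 was the most abundant member at 14.8 ± 0.164 CPM per kb (SD, n = 3). CLOCK (7.67 ± 0.324), NR1D1 (7.19 ± 0.878) and CRY1 (6.84 ± 0.517) followed. NR1D1 overlapped with both of the others, while every CLOCK value was above every CRY1 value. PER1 stood below them at 3.65 ± 0.125 CPM per kb. PER2 (1.99 ± 0.105) overlapped with CRY2 (1.69 ± 0.340), which overlapped in turn with BMAL1 (1.40 ± 0.235). DBP (0.561 ± 0.0974) and PER3 (0.505 ± 0.123) were lowest and did not differ beyond their spread. These ranks depend on the length used, the union of all annotated exons, which was 6544 bases for DBP and 2772 for NR1D1. Where the transcript in use is shorter than that union, the value per kb is too low.

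At 3 h the shear response of the clock was a rise of PER1 and PER2 alone among members that passed the test. At 12 h it was a fall of PER2, PER3, CRY2 and NR1D2, and at 24 h no member passed. Tests were made with edgeR's quasi-likelihood test with Benjamini-Hochberg adjustment over all 15189 genes tested, at an adjusted p below 0.05. At 3 h 2 of 10 members were called higher, where 1.12% of all genes were, and 0 lower, where 0.342% were. At 12 h 0 members were called higher, against 6.29% of genes, and 4 lower, against 4.55%. At 24 h 0 members were called in either direction, against 9.13% of genes higher and 8.07% lower, although 2 had an unadjusted p below 0.05 and DESeq2 called 1 (CLOCK). The members' median log2 fold change of sheared over static cells was 0.19 at 3 h, -0.46 at 12 h and -0.15 at 24 h, beside 0.01, -0.01 and -0.02 over all genes. These are levels of RNA in pooled cells, so fewer cells with a transcript and less transcript per cell cannot be told apart.

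**Figure D2:**
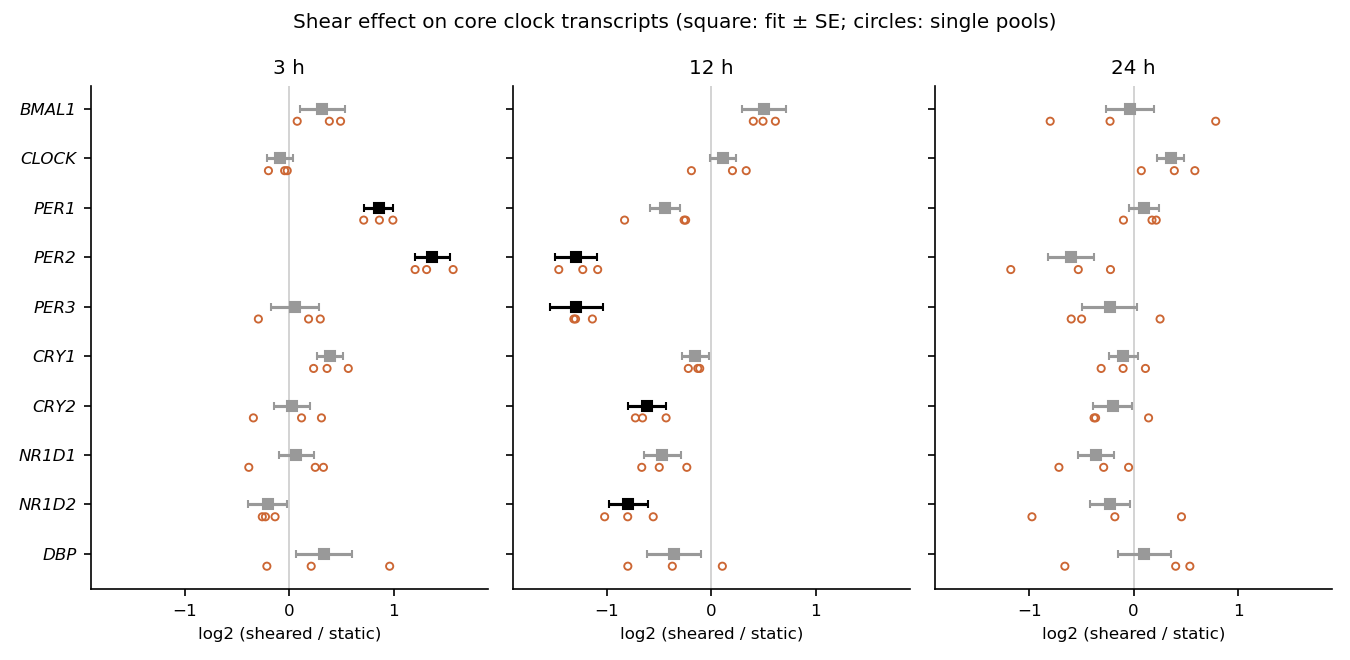
Shear effect on each core clock gene at 3, 12 and 24 h, as log2 of sheared over static level: squares are the fitted effect with its standard error, black where the adjusted p was below 0.05, and open circles the 3 single pools. PER1 and PER2 lie to the right at 3 h, and PER2, PER3, CRY2 and NR1D2 to the left at 12 h.

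PER2, a core repressor of the loop (chromosome 2, 238244038 to 238290102 of GRCh38, minus strand, as are all gene positions here), had the largest change of the 10 members at 3 h. It stood at 14.5, 13.3 and 13.2 CPM in static and at 36.3, 39.7 and 30.7 CPM in sheared 3 h libraries. All sheared libraries were above all static ones, by 2.58-fold (log2 1.37 ± 0.17 (SE), adjusted p = 1.20e-04, edgeR). At 12 h the order was reversed. Static libraries held 5.50, 5.57 and 5.73 CPM and sheared libraries 2.53, 2.31 and 2.02 CPM, so every sheared library was below every static one. The sheared level was 0.407 times the static level (log2 -1.30 ± 0.20, adjusted p = 7.89e-04, edgeR). At 24 h values of 3.77, 4.32 and 3.07 CPM in static and 2.58, 3.69 and 1.30 CPM in sheared libraries overlapped (log2 -0.60 ± 0.22, adjusted p = 0.0704). Counts behind these values ran from 797 to 977 in sheared 3 h libraries but from 17 to 62 in sheared 24 h libraries, so the late values are less precise.

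PER1, the second repressor of the family and an early-response gene in many cells (chromosome 17, 8140472 to 8156506, minus strand), rose with PER2 at 3 h. Static libraries held 25.8, 26.3 and 24.6 CPM and sheared libraries 47.0, 43.2 and 49.0 CPM. The groups were well apart, with a ratio of 1.81 (log2 0.86 ± 0.14, adjusted p = 0.00204, edgeR). Without the pools of replicate 1 or of replicate 3 at 3 h the call was lost (adjusted p = 0.0533 and 0.0683), with log2 values of 0.85 and 0.79. At 12 h PER1 stood at 21.9, 22.6 and 24.3 CPM in static and 18.3, 19.0 and 13.6 CPM in sheared libraries. Each sheared library was below the static ones, and the difference (log2 -0.45 ± 0.14, adjusted p = 0.0552) did not pass, though DESeq2 called it (adjusted p = 0.0381). At 24 h sheared libraries spread from 16.8 to 27.2 CPM around the static ones, the highest of which held 23.9 CPM.

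PER3, the third PER gene (chromosome 1, 7784320 to 7845177, plus strand), was the least abundant of the family at 3 h and did not pass then. It held 5.22, 3.72 and 3.33 CPM in static and 4.24, 4.24 and 4.12 CPM in sheared 3 h libraries (log2 0.06 ± 0.23), with overlap. At 12 h static libraries held 4.44, 3.99 and 4.14 CPM and sheared libraries 1.74, 1.54 and 1.82 CPM. The sheared libraries were all lower, at 0.407 times the static level (log2 -1.30 ± 0.25, adjusted p = 0.00407, edgeR). Without the 12 h pool of replicate 2 the adjusted p was 0.0532, and without the pool as a block 0.0867. At 24 h sheared libraries spread from 1.15 to 5.30 CPM, around the static range of 1.79 to 4.43 CPM. The annotated exons of UTS2, on the opposite strand, cover 10.7% of those of PER3, but UTS2 itself reached at most 0.419 CPM in any group.

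The 2 CRY genes encode the partners that carry most of the direct repression of CLOCK and BMAL1. CRY1 (chromosome 12, 106991364 to 107093829, minus strand) held 35.9, 36.3 and 31.6 CPM in static and 46.2, 42.7 and 46.8 CPM in sheared 3 h libraries. The groups did not overlap, yet the difference (log2 0.39 ± 0.13, adjusted p = 0.205) passed only when the 3 h libraries were fitted alone (adjusted p = 0.00418), a fit that called 5.64% of all genes higher and 4.49% lower. At 12 h and 24 h its log2 values were -0.16 ± 0.13 and -0.10 ± 0.14, with adjusted p of 0.482 and 0.674.

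CRY2 (chromosome 11, 45847118 to 45883248, plus strand) held 9.38, 11.1 and 9.39 CPM in static and 6.92, 6.65 and 5.90 CPM in sheared 12 h libraries. Every sheared library lay below the static ones, at 0.652 times their level (log2 -0.62 ± 0.18, adjusted p = 0.0399, edgeR). Of the 4 member calls at 12 h this one had the highest adjusted p. It was lost without any one of the 12 h pools (adjusted p = 0.104, 0.235 and 0.130 without replicates 1, 2 and 3), without the 3 h pool of replicate 1 or 2 (0.0639 and 0.0573), and without the pool as a block (0.119). At 3 h and 24 h the log2 values were 0.03 ± 0.18 and -0.20 ± 0.18, and the groups overlapped.

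The activator genes did not pass in any shear comparison. BMAL1 (chromosome 11, 13276652 to 13387266, plus strand) held 12.99, 14.1 and 11.6 CPM in static and 18.3, 18.7 and 17.9 CPM in sheared 12 h libraries, the opposite direction to the repressors. All sheared libraries were above all static ones (log2 0.50 ± 0.21, adjusted p = 0.135). The difference passed with the 12 h libraries fitted alone (adjusted p = 0.0347), with no filter on low counts (0.0434) and without the 24 h pool of replicate 3 (0.0238). At 24 h BMAL1 stood at 7.72, 7.54 and 8.85 CPM in static and at 6.59, 4.29 and 15.3 CPM in sheared libraries. Its high value came from the sheared 24 h library that stood apart in scaling, and without that pool the 24 h log2 value moved from -0.04 to -0.49.

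CLOCK, the partner of BMAL1 (chromosome 4, 55427903 to 55547138, minus strand), had overlapping levels at 3 h, from 86.4 to 94.0 CPM without shear and from 81.9 to 89.0 CPM with it (log2 -0.09 ± 0.12). At 12 h the ranges of 74.6 to 107 and 85.8 to 119 CPM overlapped (log2 0.11 ± 0.12). At 24 h static libraries held 67.6, 43.8 and 61.6 CPM and sheared libraries 88.7, 46.1 and 92.5 CPM. Within each pool the sheared library was the higher one, although the groups overlapped (log2 0.35 ± 0.13, adjusted p = 0.0603, edgeR, and 0.0471 with DESeq2).

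NR1D2 (chromosome 3, 23945260 to 23980618, plus strand) was the REV-ERB gene that passed. It held 61.6, 55.5 and 48.9 CPM in static and 41.9, 27.3 and 28.0 CPM in sheared 12 h libraries. The groups were apart, and the sheared level was 0.576 times the static one (log2 -0.79 ± 0.19, adjusted p = 0.0160, edgeR). The call was lost without the 12 h pool of replicate 2 or 3 (adjusted p = 0.169 and 0.0724) and without the pool as a block (0.0932). At 3 h NR1D2 held 84.9, 86.8 and 86.0 CPM in static and 71.0, 74.1 and 78.2 CPM in sheared libraries. The sheared values were all lower but did not pass (log2 -0.21 ± 0.18, adjusted p = 0.855). In the fit of the 3 h libraries alone, which called more genes in both directions, the adjusted p was 0.0304. At 24 h the sheared libraries ranged from 45.2 to 113 CPM, around the static range of 69.5 to 88.8 CPM, and the lowest was replicate 3.

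NR1D1 (chromosome 17, 40092787 to 40100725, minus strand) had values in the same direction at 12 h, with 12.3, 10.7 and 11.6 CPM in static and 10.4, 7.57 and 7.30 CPM in sheared libraries. The sheared libraries were below the static ones (log2 -0.47 ± 0.18, adjusted p = 0.102). At 3 h and 24 h its log2 values were 0.06 ± 0.17 and -0.36 ± 0.17, with adjusted p of 0.960 and 0.159. THRA, on the opposite strand, covers 9.49% of its exons, and the strand setting of the counting is not given in the sources used here. THRA itself had log2 values of 0.05, 0.15 and -0.37 at the 3 times, with adjusted p of 0.970, 0.627 and 0.179.

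DBP, the D-box activator among the members and an output of the loop (chromosome 19, 48630030 to 48637438, minus strand), passed at no time. Its log2 values were 0.33 ± 0.27, -0.36 ± 0.26 and 0.10 ± 0.25 at 3, 12 and 24 h, with adjusted p of 0.832, 0.407 and 0.829. In the 3 h libraries it held only 70 to 157 counts. SPHK2, on the opposite strand, covers 10.1% of its exons and held 7.59 to 25.6 CPM over the 24 h sheared libraries.

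**Figure D3:**
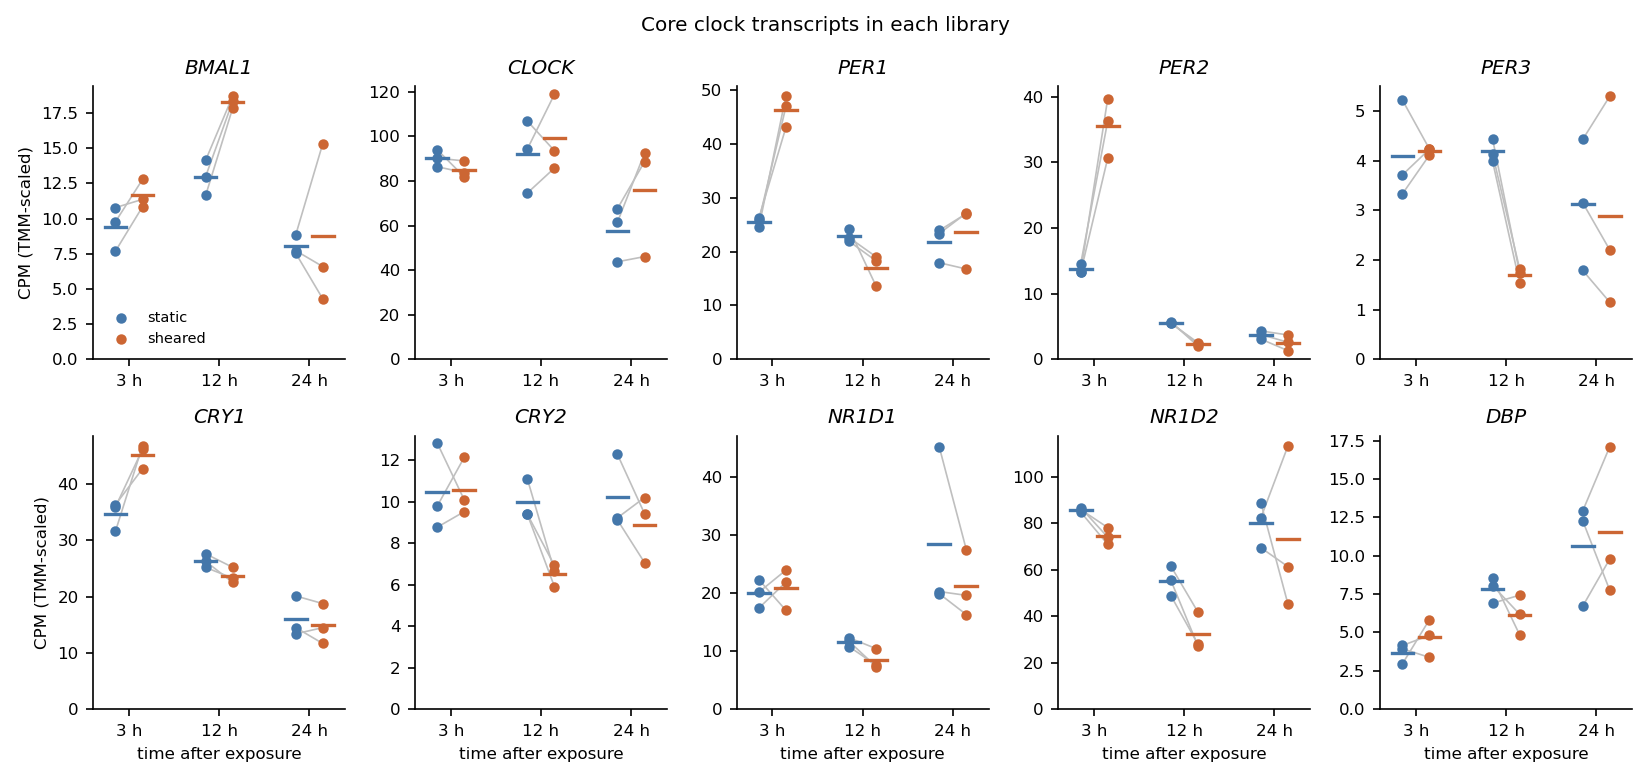
TMM-scaled CPM of each core clock gene in each of the 18 libraries, by time after exposure; points are libraries, grey lines join the static (blue) and sheared (orange) library of 1 pool, bars are group means, and each panel has its own axis from 0. The sheared libraries of PER1 and PER2 stand above the static ones at 3 h, and those of PER2 and PER3 stand below them at 12 h. Several other members have separate groups at 3 h or 12 h as well.

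The shear effects at 12 h and at 3 h were then compared with each other in the same model. The effect on PER2 was lower at 12 h by 2.66 on the log2 scale (-2.66 ± 0.26, adjusted p = 1.48e-04, edgeR) and that on PER1 by 1.31 (-1.31 ± 0.20, adjusted p = 0.00209). PER1 and PER2 were higher in the sheared library in each of the 3 pools of 3 h, and lower in each of the 3 separate pools of 12 h. These were the 2 members called lower, against 0.895% of all genes, and 0 were called higher, against 0.514%. PER3 had a difference of similar size to PER1 (-1.35 ± 0.34) that did not pass (adjusted p = 0.0590, edgeR, and 0.0364 with DESeq2). Between 24 h and 12 h 0 members were called, against 0.586% of genes higher and 0.079% lower, while 3 had an unadjusted p below 0.05 and DESeq2 called 0. PER3 (1.07 ± 0.37), PER2 (0.70 ± 0.30) and PER1 (0.55 ± 0.20) had those p-values, with adjusted p of 0.331, 0.526 and 0.399. Without the 24 h pool of replicate 3 NR1D2 passed in this comparison (log2 0.95, adjusted p = 0.0183).

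Time after exposure was compared within each treatment between 24 h and 12 h, which carry the same date. In static cells the REV-ERB genes rose while both activators, PER2 and CRY1 fell. NR1D1 went from 12.3, 10.7 and 11.6 CPM to 20.2, 19.9 and 45.1 CPM, with replicate 3 highest (log2 1.29 ± 0.26, adjusted p = 0.00205, edgeR). Without that library the NR1D1 value was 0.78, still called. NR1D2 rose by a log2 value of 0.53 ± 0.13 (adjusted p = 0.00586). BMAL1 changed by -0.69 ± 0.18 (adjusted p = 0.00703), CLOCK by -0.68 ± 0.16 (0.00418), CRY1 by -0.73 ± 0.16 (0.00232) and PER2 by -0.60 ± 0.19 (0.0228). The fall of PER2 lost its call without static replicate 1 or 2 at 12 h or replicate 3 at 24 h (adjusted p = 0.0644, 0.0680 and 0.0824). Thus 2 of 10 members were called higher and 4 lower, where 16.9% and 15.6% of all 14804 genes tested were. The count called higher is near the share of all genes.

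In sheared cells the same comparison called 1 member higher, NR1D1, and 0 lower, where 1.75% and 0.797% of 14672 genes were called. NR1D1 went from 10.4, 7.57 and 7.30 CPM to 19.6, 16.3 and 27.5 CPM, with no overlap (log2 1.32 ± 0.25, adjusted p = 0.0247, edgeR). The call was lost without any one of the sheared 12 h libraries (adjusted p = 0.0971, 0.124 and 0.120). NR1D2 (1.17 ± 0.30, adjusted p = 0.0593) and BMAL1 (-1.08 ± 0.36, 0.119) did not pass. Without the sheared 24 h library of replicate 3 both did, with log2 values of 1.43 (adjusted p = 0.0103) and -1.75 (0.00422).

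The number of NR1D2 reads per BMAL1 read in a library sets a target of the activator against the activator gene and needs no scaling between libraries. It can be compared between libraries, not read as a ratio of transcript numbers. At 12 h it was 4.74, 3.93 and 4.20 in static and 2.28, 1.46 and 1.57 in sheared libraries, all sheared values being lower. At 3 h it was 7.88, 8.88 and 11.2 in static and 6.24, 5.79 and 7.21 in sheared libraries, again without overlap. At 24 h static libraries held 10.7, 9.22 and 10.0, and sheared libraries 17.2, 14.3 and 2.95. In pools 1 and 2 the sheared library was thus above the static one and in pool 3, with the library that stood apart, far below it. No test was made of this ratio.

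**Figure D4:**
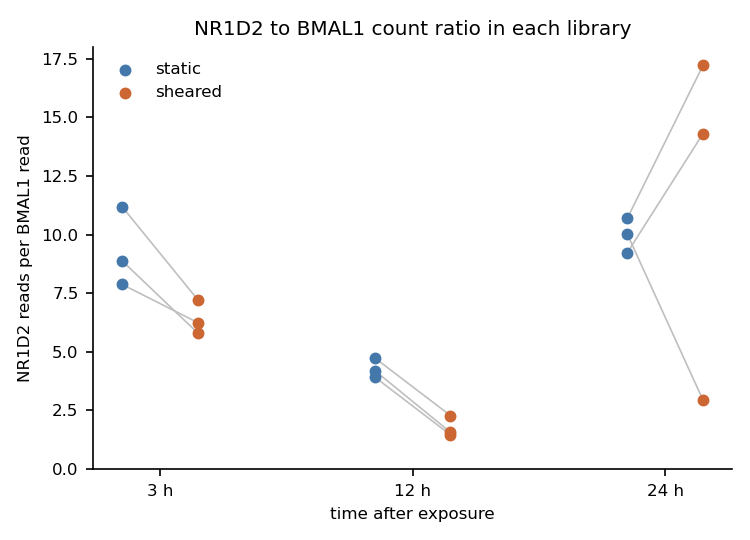
Raw NR1D2 reads per BMAL1 read in each library by time after exposure; points are libraries, static in blue and sheared in orange, and grey lines join the 2 libraries of a pool. Sheared libraries lie below static ones at 3 h and 12 h, and at 24 h they split, with values of 17.2, 14.3 and 2.95.

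Partners of the loop showed calls of their own, of which 9 of 11 listed genes could be tested. At 3 h 0 of the 9 were called, 0 had an unadjusted p below 0.05, where 1.12% and 0.342% of all genes were called higher and lower. At 12 h 1 was higher and 2 were lower, where 6.29% and 4.55% of all genes were. BMAL2, a paralog of BMAL1, held 211, 214 and 220 CPM in static and 414, 368 and 386 CPM in sheared 12 h libraries, with the groups far apart (log2 0.86 ± 0.13, adjusted p = 6.22e-04, edgeR). It was also higher at 24 h (0.65 ± 0.13, adjusted p = 0.00255), a call lost only with the 24 h libraries fitted alone (adjusted p = 0.0525). TEF, a D-box activator related to DBP, held 11.5, 13.3 and 18.3 CPM in static and 3.38, 3.76 and 4.75 CPM in sheared 12 h libraries. All sheared values were lower (log2 -1.85 ± 0.33, adjusted p = 0.00448, edgeR), and without the 12 h pool of replicate 2 the adjusted p was 0.0505. CIART, a repressor of the CLOCK and BMAL1 complex, held 17.0, 16.5 and 16.8 CPM in static and 9.23, 9.11 and 10.4 CPM in sheared 12 h libraries. It was lower in every sheared library (log2 -0.81 ± 0.23, adjusted p = 0.0298), and the call was lost without any one of the 12 h pools (0.149, 0.195 and 0.0808). At 24 h BHLHE41 (DEC2), an E-box repressor, was lower (log2 -0.50 ± 0.14, adjusted p = 0.0210), but not without the 24 h pool of replicate 3 (-0.20, adjusted p = 0.313). The calls at 24 h, 1 of 9 in each direction, are near the shares of all genes, 9.13% higher and 8.07% lower.

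Among 18 genes that modify or degrade clock proteins, all of them tested, 1 was called higher at 3 h, 2 at 12 h and 2 at 24 h, and 0 were called lower at these times. Of all genes 1.12%, 6.29% and 9.13% were called higher at these times, so the count at 24 h is near the share of all genes. USP2, a deubiquitinase of PER and CRY proteins that is itself a clock output, held 5.90, 4.23 and 5.04 CPM in static and 12.1, 10.2 and 9.96 CPM in sheared 3 h libraries. The sheared libraries were all higher (log2 1.09 ± 0.23, adjusted p = 0.0203, edgeR), and the call was lost without any one of the 3 h pools (0.200, 0.286 and 0.138). At 12 h the calls were CSNK1E, which encodes the PER kinase casein kinase 1 epsilon (0.76 ± 0.24, adjusted p = 0.0468), and CSNK2A2, a catalytic subunit of casein kinase 2 (0.44 ± 0.13, 0.0367). They were lost in 9 and 7 of 15 alternatives, and without the 12 h pool of replicate 2 the CSNK1E value was 0.50 (adjusted p = 0.404). At 24 h CSNK2B, its regulatory subunit (0.40 ± 0.12, adjusted p = 0.0302), and TIMELESS, a replication fork protein that also binds CRY (0.59 ± 0.16, 0.0156), were higher. Both lost their call in 5 of 15 alternatives, among them without the 24 h pool of replicate 2 (adjusted p = 0.0745 and 0.111) or 3 (0.188 and 0.0946). Without the pool of replicate 1 the TIMELESS value was 0.90.

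Of 13 clock-controlled output genes 11 could be tested. At 3 h CDKN1A, the cell cycle inhibitor p21, was higher (log2 0.68 ± 0.13, adjusted p = 0.00937, edgeR), a call lost without any one of the 3 h pools (0.156, 0.176 and 0.0708). CDKN1A was the 1 output of 11 called at 3 h, where 1.12% of all genes were called higher and 0.342% lower. At 12 h 0 outputs were called, with 2 at an unadjusted p below 0.05, where 6.29% of all genes were called higher and 4.55% lower. At 24 h CDKN1A was lower (-0.51 ± 0.14, adjusted p = 0.0154), though not without the 24 h pool of replicate 1 or 2 (0.0574 and 0.134, the log2 value being -0.30 in the latter case), and WEE1, a kinase that holds back mitosis, was higher (0.48 ± 0.16, 0.0469). The WEE1 call was lost in 10 of 15 alternatives, with a value of 0.23 without the 24 h pool of replicate 3 (adjusted p = 0.410). These calls, 1 of 11 in each direction, are near the shares of all genes called at 24 h, 9.13% higher and 8.07% lower. The list medians at 12 h were -0.43 for loop partners, -0.04 for turnover genes and 0.11 for outputs, beside -0.01 over all genes.

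**Figure D5:**
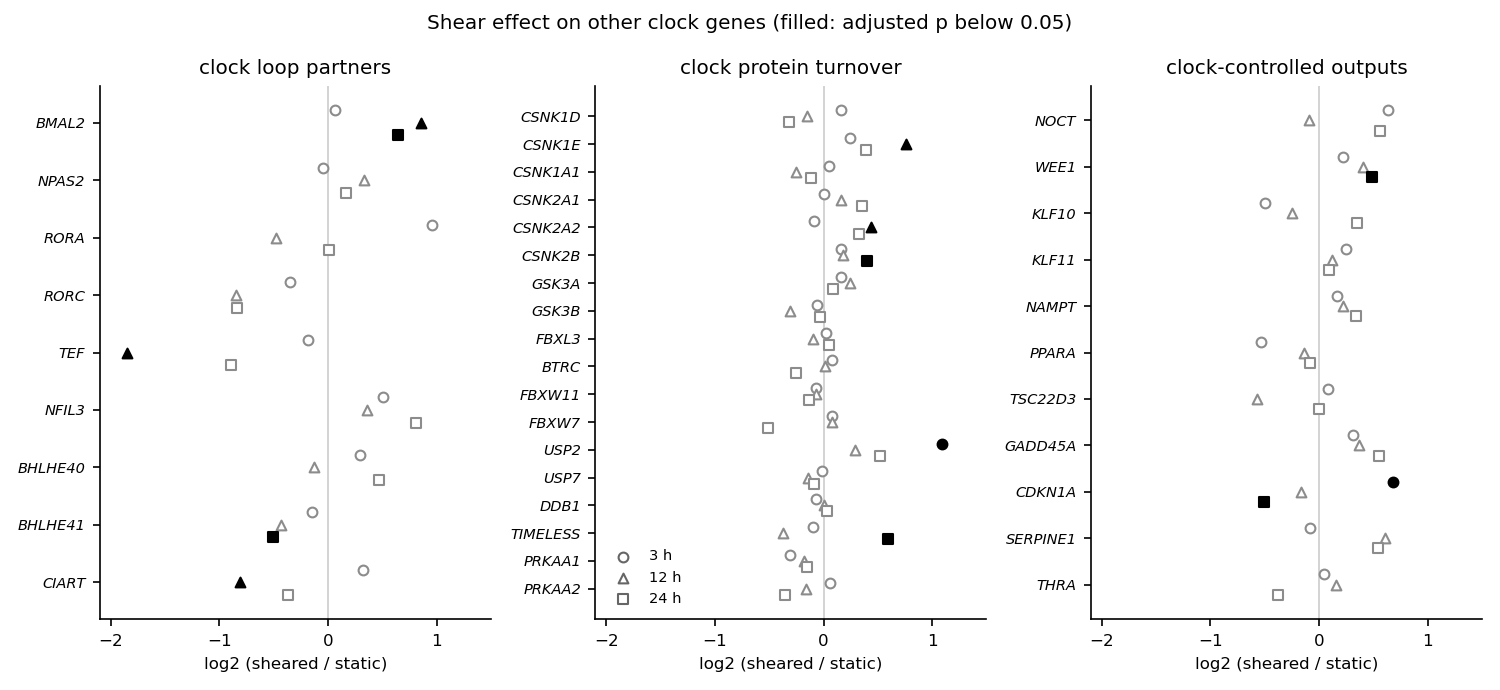
Fitted shear effect, as log2 of sheared over static level, of the tested loop partners, turnover genes and output genes of the clock at 3 h (circles), 12 h (triangles) and 24 h (squares); filled symbols had an adjusted p below 0.05. TEF at 12 h, at -1.85, and USP2 at 3 h, at 1.09, lie farthest out among the filled symbols.

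For each called member the 2 genes with the most similar shear response were sought among 12369 genes, by the root mean square difference of log2 ratios over the 9 pools. Nearest to PER1 were PHLDA1 (0.301) and TUBA1A (0.304), and nearest to PER2 were SYNE4 (0.580) and COL1A1 (0.591), the largest such distances for the 5 called members. PER3 was nearest to FAM200C (0.342) and SLC35F2 (0.348). CRY2 was nearest to PECAM1 (0.185) and ACER3 (0.190), and NR1D2 to CLMN (0.176) and TNFRSF11A (0.251). COL1A1 and PECAM1 are the fibroblast and endothelial markers named above.

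In the authors' deposited table at 3 h PER1 had a log2 fold change of 0.86 (adjusted p = 0.00107) and PER2 of 1.36 (1.75e-09). At 12 h the authors' deposited table held PER2 at -1.31 (adjusted p = 9.07e-06), PER3 at -1.30 (0.00998) and NR1D2 at -0.80 (0.0161). CRY2 stood there at -0.62 with an adjusted p of 0.0578, on the other side of the threshold from the fit above. PER1 at 12 h (-0.44, adjusted p = 0.187) and CLOCK at 24 h (0.40, 0.275) did not pass in the authors' deposited tables. The DESeq2 fit made here called both. BMAL1 at 24 h had a log2 value of 0.10 in the authors' deposited table and of -0.04 here.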

How the data were processed

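RNA of the cytosolic fraction was sequenced from 18 libraries. Per the submitters' processing notes, the authors used STAR, DESeq2 and build GRCh38.p13. Tool versions, the counting program, the gene annotation and strandedness are not given in the sources used. The deposited table holds raw, unscaled counts made by the authors for each Gene ID. The authors also deposited a table for each time with log2 fold changes and adjusted p-values, per the file headers. Columns for 3 h were assigned to samples through the time and letter in the labelled library names.

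Counts were tested with edgeR 4.0.16 in R 4.3.3: filterByExpr (minimum count 10, minimum total 15), TMM factors, the quasi-likelihood F test (legacy method, robust dispersion), and Benjamini-Hochberg adjustment at 0.05. The 15189 genes kept were fitted over all 18 libraries with 9 pool terms and 3 shear terms, 1 for each time, leaving 6 residual degrees of freedom. Times were compared in models of the 9 static (14804 genes) or 9 sheared (14672 genes) libraries. A standard error is the absolute log2 fold change divided by the root of F, and log2 ratios of single pools used a prior count of 2. Exon lengths and gene positions came from GENCODE 29, the union of all annotated exons of a gene. Chi-square values for replicates of a group, divided by their degrees of freedom, were 4.44 to 143, and no 2 libraries were identical. Per the labels they are separate biological replicates.

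The labels state that a pool pairs sheared and static libraries. As a check, correlations of deviations from the group mean between libraries of the same number ranged, at 3 h, over 0.0881 to 0.299 (other libraries -0.242 to 0.130). At 12 h the range was -0.148 to 0.245 (others -0.385 to 0.233), and at 24 h it was 0.379 to 0.504 (others -0.296 to -0.0924).

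All 10 members are named. Of the other clock lists the rule names every member called in a shear test, and for each called member the 2 most similar genes outside the clock lists with a mean log2 CPM of at least 1. MALAT1 and NEAT1 are named as measures of nuclear RNA. A prostate marker of the lists is not reported here. THRA, UTS2 and SPHK2 were added as overlapping genes after their values could be seen. Members, lists and tests were chosen with earlier results of these data known. Alternatives were size factors of DESeq2, total counts, no filter, DESeq2 1.42.0, no replicate block, the libraries of a time alone, and leaving out each pool or library. The fits were tested on simulated data.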

Additional observations from a re-analysis of the deposited data

Results flagged for a closer look

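PER1 and PER2 were singled out because their response to shear differed between times by a test of the difference itself. The shear effect at 12 h minus that at 3 h was -1.31 ± 0.20 on the log2 scale for PER1 and -2.66 ± 0.26 for PER2 (adjusted p = 0.00209 and 1.48e-04, edgeR's quasi-likelihood test with Benjamini-Hochberg adjustment). Both differences passed in each of the 14 alternatives run. The 3 h pools carry another date than the 12 h pools, so the time of sampling and a possible batch cannot be told apart in this difference.

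Of all genes 0.514% were called higher and 0.895% lower for 12 h minus 3 h, and 0.586% and 0.079% for 24 h minus 12 h. Of the other clock genes, 9 loop partners, 18 turnover genes and 11 outputs were tested. Among them the difference passed for BMAL2 (0.80 ± 0.18, adjusted p = 0.0361) and CDKN1A (-0.85 ± 0.19, 0.0311) between 12 h and 3 h. Between 24 h and 12 h it passed for TIMELESS (0.97 ± 0.22, 0.04997). These calls were lost in 7, 6 and 10 of 14 alternatives, among them leaving out any one pool of 12 h or 3 h for BMAL2 (adjusted p from 0.0679 to 0.174) and any one pool of 12 h for TIMELESS (0.160 to 0.224). For CDKN1A the call was lost without any one pool of 3 h or without the 12 h pools of replicate 1 or 2 (0.106 to 0.180).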

How the results depend on the processing

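PER2 at 3 h and at 12 h, and BMAL2 at 12 h, passed in each of the 15 alternatives run. Scaling by total counts moved the median of all genes to -0.16 at 12 h, -0.18 at 24 h, -0.10 for 12 h minus 3 h, -0.18 for static and -0.19 for sheared cells on the log2 scale, and the values under it should be read against those shifts. It turned the share of higher against lower calls at 12 h from 6.29% and 4.55% of all genes to 2.80% and 9.49%, at 24 h from 9.13% and 8.07% to 5.15% and 15.9%, and in static cells from 16.9% and 15.6% to 9.01% and 25.2%. Without the replicate block, 1 member (PER2) in place of 4 was lower at 12 h, and 183 and 137 genes in place of 956 and 691 were called higher and lower. Total counts called 6 members lower at 12 h, adding PER1 and NR1D1 (adjusted p = 0.0152 and 0.0443), and DESeq2 and no filter 5 each, adding PER1 (0.0381 and 0.0492). Members called higher at 12 h numbered 1 in place of 0 with the 12 h libraries alone and with no filter. With the 3 h libraries alone 1 member (NR1D2) in place of 0 was lower at 3 h, in a fit that called 816 genes higher and 650 lower in place of 170 and 52. At 24 h DESeq2 called 1 higher (CLOCK) and total counts 1 lower (PER2), in place of 0. For sheared cells over time DESeq2 and no filter each called 2 higher in place of 1, and DESeq2 called 2 and total counts 1 lower in place of 0. For static cells total counts called 1 higher in place of 2.

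Leaving out each pool or library in turn gave 1 to 2 members higher at 3 h, 0 to 1 higher and 1 to 5 lower at 12 h, 0 to 1 higher and 0 to 1 lower at 24 h, and 0 to 1 higher for 24 h minus 12 h. For sheared cells over time it gave 0 to 2 higher and 0 to 1 lower. The shares of all genes called moved as well. In the fits without 1 pool 0.456% to 1.97% of genes were called higher at 3 h. At 12 h 1.27% to 10.1% were called higher and 1.07% to 7.37% lower, and at 24 h 6.09% to 9.56% and 3.94% to 8.99%. For 24 h minus 12 h 0.0843% to 1.01% were called higher. In sheared cells over time 0 to 834 genes were called higher when 1 library was left out, and 0 without sheared 12 h replicate 2.

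Values that changed sign were of members not called. With total counts they were CLOCK at 12 h (-0.040), DBP (-0.057) and PER1 (-0.062) at 24 h, CRY2 at 3 h (-0.024) and CRY2 in static cells over time (-0.16). Without the replicate block BMAL1 at 24 h was 0.11. Leaving out a pool or library, the ranges at 24 h were -0.49 to 0.32 for BMAL1, -0.20 to 0.022 for CRY1, -0.11 to 0.49 for DBP and -0.58 to 0.16 for NR1D2. At 3 h they were -0.12 to 0.22 for CRY2, -0.0025 to 0.59 for DBP, -0.074 to 0.28 for NR1D1 and -0.061 to 0.24 for PER3. For 24 h minus 12 h they were -0.048 to 0.17 for CRY1 and -0.040 to 0.32 for NR1D1, for sheared cells over time -0.21 to 0.47 for PER2 and -0.025 to 1.13 for PER3, and for static cells over time -0.14 to 0.11 for CRY2 and -0.17 to 0.033 for PER1. The cause of these changes was not tested. Low counts limit PER2 and PER3 at 12 h and 24 h, where sheared libraries held 17 to 62 reads of PER2 and 15 to 78 of PER3.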

Other observations

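Within the PER family, PER2 reads per PER1 read were 0.563, 0.506 and 0.538 in static and 0.772, 0.920 and 0.625 in sheared 3 h libraries. At 12 h they were 0.251, 0.246 and 0.236 in static and 0.138, 0.122 and 0.148 in sheared libraries. The sheared libraries were thus all above the static ones at 3 h and all below them at 12 h. At 24 h they were 0.210, 0.185 and 0.128 in static and 0.154, 0.136 and 0.0482 in sheared libraries, the lowest being the sheared library of replicate 3. These ratios need no scaling between libraries, and no test was made of them.

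Between the CRY genes, CRY1 reads per CRY2 read were 2.94, 2.37 and 2.68 in static and 3.64, 3.38 and 3.94 in sheared 12 h libraries, with every sheared library higher. At 3 h the values of 4.10, 3.72 and 2.47 in static and 4.86, 3.52 and 4.65 in sheared libraries overlapped, and in pool 2 the sheared library was lower. At 24 h the values of 2.18, 1.09 and 1.59 in static and 1.84, 1.54 and 1.65 in sheared libraries overlapped.

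In static cells between 12 h and 24 h, TIMELESS had the lowest adjusted p of the other clock genes (log2 -1.49 ± 0.13, adjusted p = 9.99e-07, edgeR's quasi-likelihood test with Benjamini-Hochberg adjustment), from 57.6, 56.4 and 57.3 CPM to 18.4, 22.9 and 20.1 CPM. In sheared cells it held 41.1, 45.8 and 45.5 CPM at 12 h and 17.3, 43.0 and 37.3 CPM at 24 h, and the lowest of these was replicate 1. Its shear effect was higher at 24 h than at 12 h by 0.97 ± 0.22 (adjusted p = 0.04997).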
